A study of Mus musculus with 16 samples.

Results

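The 38 genes described here carry out DNA replication and drive the cell cycle. With earlier results of these data known, they were chosen by symbol from the 55416 genes of the deposited table. Of these, 12 act in G1 and at its exit (D and E cyclins, their kinases, kinase inhibitors, Rb1 and E2f1), 16 act in S phase (origin licensing, DNA synthesis and nucleotide supply) and 10 in G2 and mitosis. Each symbol matched 1 row of the table. RNA was sequenced from primary hepatocytes, parenchymal cells isolated from mouse liver and put into culture, in 16 libraries. FLOX cells lacked Cre recombinase under the albumin promoter (Alb-cre-), and HKO cells carried it (Alb-cre+) in a loxP cross that deletes Smpd3, the gene of a neutral sphingomyelinase, in hepatocytes. The albumin promoter confines the deletion to cells that express albumin. Cells of each genotype were kept for 24 h with vehicle or with palmitic acid at 0.4 mM, a saturated fatty acid that loads hepatocytes with lipid, and each of the 4 groups holds 4 libraries. The strain, age and sex of the mice are not given in the labels used here, and they leave unsaid whether a group's 4 libraries stem from different animals or cultures. The p-values therefore refer to the spread among these libraries, which may be technical.

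In quiescent cells the retinoblastoma protein holds the E2F transcription factors inactive. D cyclins with Cdk4 or Cdk6, and then E cyclins with Cdk2, phosphorylate it, which releases E2F and turns on the genes of licensing, DNA synthesis and nucleotide supply. B cyclins with Cdk1 later drive mitosis, whose genes are switched on in G2. Adult hepatocytes rest outside the cycle in the intact liver, re-enter it after partial hepatectomy and are known to become polyploid by copying DNA without completing division. Isolation and plating are known to move them from rest into G1, and growth factors are needed to take them further.

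All values are TPM, in which a gene's reads are divided by its length and scaled to a common total, so levels can be compared between genes. The deposited values of a library summed to between 975816 and 984870 TPM, so these totals were close but not equal. Per library 11231 to 11498 genes reached 1 TPM, and the depth is unknown because TPM does not keep it. Smpd3 stood with vehicle at 32.0 ± 4.1 (FLOX) and 5.28 ± 0.71 TPM (HKO), and with palmitic acid at 46.0 ± 2.4 and 7.82 ± 1.1 TPM (mean ± SD, n = 4, as in all such values here). The 9 hepatocyte markers, Alb among them, were all tested. They summed with vehicle to 44600 to 46100 TPM (FLOX) and 44400 to 45900 TPM (HKO), and with palmitic acid to 36500 to 38500 and 36400 to 37400 TPM, with 7 and 8 of the 9 called lower with palmitic acid in FLOX and HKO cells. Of 9 stellate and fibroblast markers and 9 lymphocyte and neutrophil markers none reached the filter, with sums of at most 2.26 and 0.46 TPM. Endothelial markers summed to 7.46 to 14.4 TPM. Of the 4 tested, Stab2 alone was called between genotypes, higher in HKO cells with vehicle (1.52 ± 0.41 against 0.698 ± 0.022 TPM in FLOX cells). Erythroid markers summed to 20.3 to 24.2 TPM, nearly all of it Alas2, which did not differ between genotypes by the test. Macrophage markers summed to 49.3 to 55.7 TPM in FLOX and 60.9 to 70.8 TPM in HKO cells with vehicle, and to 56.7 to 69.1 and 81.6 to 108 TPM with palmitic acid. Cd68 made up nearly all of this (50.7 ± 2.9 and 62.4 ± 3.8 TPM with vehicle), while Adgre1, Clec4f and Ptprc stayed under 0.2 TPM in the mean of every group. Cholangiocyte markers summed to 193 to 203 TPM in FLOX and 310.0 to 334 TPM in HKO cells with vehicle, and to 207 to 251 and 346 to 395 TPM with palmitic acid. Spp1 led them (149 ± 6.0 and 274 ± 12 TPM with vehicle), and Cftr was listed at 0 in every library. The part of these marker differences in the results below was not tested.

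RNA of the replication genes was present in all 4 groups, while most mitotic genes stayed under 1 TPM. Pcna, the sliding clamp of the replication fork, and the helicase subunit Mcm6 led the 38 genes with Ccnd3 and Cdk4. Every one of the 16 S phase genes was tested, meaning at least 1 TPM in at least 4 of the 16 libraries, and so were 11 of the 12 G1 genes but only 3 of the 10 G2 and mitotic genes. In FLOX cells with vehicle the S phase genes summed to 346 ± 11 TPM, the G1 genes to 174 ± 8.1 TPM and the mitotic genes to 16.7 ± 1.7 TPM. Cdk1 supplied most of the mitotic sum, and the other 9 mitotic genes together came to 6.32 ± 0.83 TPM.

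**Figure D1:**
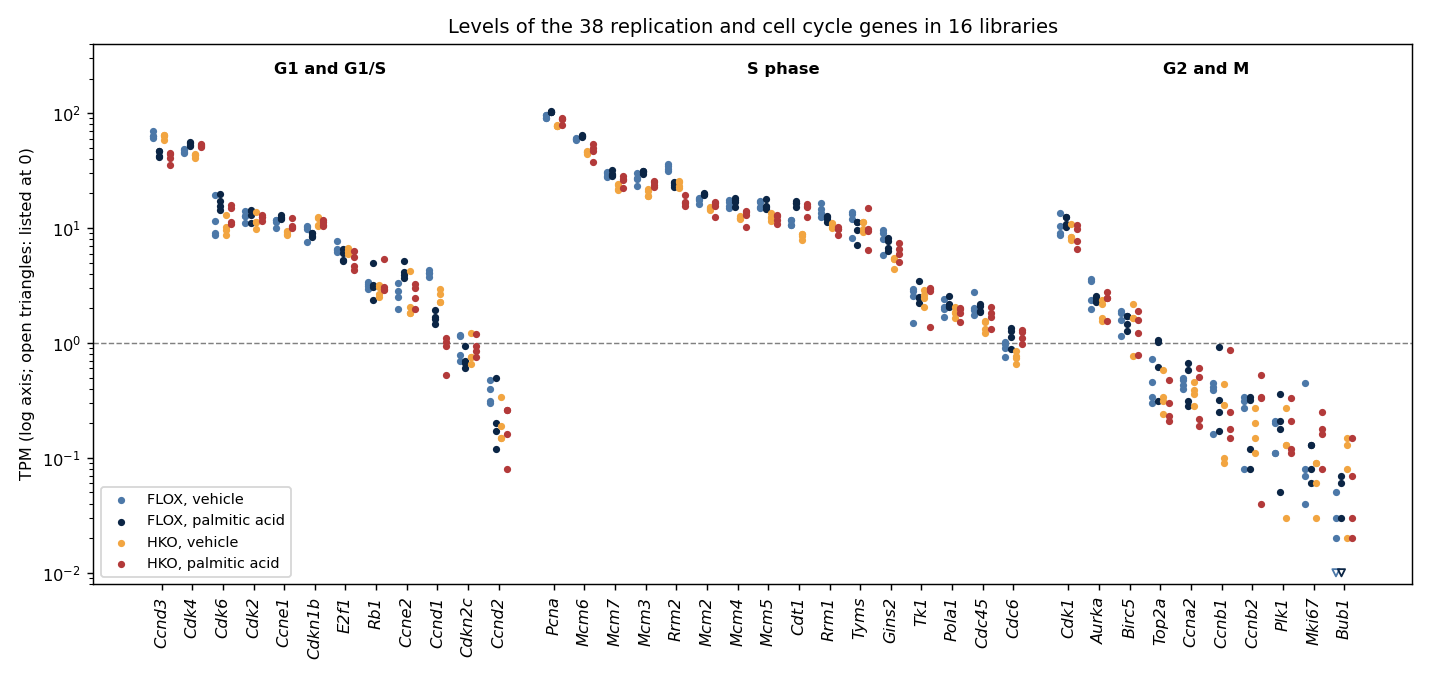
TPM of the 38 genes (log axis) in each of the 16 libraries, ordered within each phase by mean level and coloured by group; the dashed line marks 1 TPM and open triangles mark values listed at 0. The S phase genes lie at or above 1 TPM but for Cdc6, while 7 of the 10 G2 and mitotic genes lie almost wholly below it.

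The genes that stayed low were of the G2 and mitotic set, but for the G1 gene Ccnd2. Mki67, whose protein coats mitotic chromosomes and is the usual proliferation marker, was 0.45, 0.07, 0.04 and 0.08 TPM in replicates 1 to 4 of FLOX cells with vehicle (the order used throughout) and 0.06, 0.13, 0.13 and 0.08 TPM with palmitic acid. Mki67 in HKO cells was 0.09, 0.09, 0.06 and 0.03 TPM with vehicle and 0.25, 0.16, 0.08 and 0.18 TPM with palmitic acid. The 0.45 TPM of FLOX vehicle replicate 1 was the highest of the 16, and the groups overlapped. Ccna2 (0.19 to 0.67 TPM), Ccnb1 (0.09 to 0.93 TPM) and Ccnb2 (0.04 to 0.53 TPM), the A and B cyclins, stayed under 1 TPM in every library. So did Plk1, a kinase of mitotic entry (0.03 to 0.36 TPM), and Bub1, a kinase of the spindle checkpoint (0 to 0.15 TPM). Top2a, the topoisomerase that untangles sister chromatids, reached 1 TPM in 2 libraries, FLOX palmitic acid replicates 1 and 3, at 1.07 and 1.01 TPM, and its lowest value was 0.21 TPM. Ccnd2, the D cyclin of the G1 set that was not tested, ran from 0.08 to 0.50 TPM. These 8 genes gave no call in either direction when the filter was dropped and all 38 were tested.

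The mitotic genes that were tested were Cdk1, Aurka and Birc5. Cdk1, the kinase that B cyclins activate, was 10.4 ± 2.2 and 11.5 ± 1.1 TPM in FLOX cells with vehicle and palmitic acid and 8.90 ± 1.4 and 8.64 ± 1.8 TPM in HKO cells. That is far above its partners Ccnb1 and Ccnb2, which did not reach 1 TPM. Aurka, a spindle kinase, was 2.85 ± 0.82, 2.39 ± 0.12, 1.93 ± 0.40 and 2.32 ± 0.54 TPM in the same order. Birc5, which encodes survivin of the chromosomal passenger complex, was 1.61 ± 0.34, 1.54 ± 0.22, 1.57 ± 0.59 and 1.38 ± 0.48 TPM. None of the 3 passed the test in any of the 5 comparisons. The largest differences were those of Cdk1 between genotypes with palmitic acid (-0.39 ± 0.15 on the log2 scale, ± SE, limma adjusted p = 0.112) and of Aurka between genotypes with vehicle (-0.38 ± 0.16, limma adjusted p = 0.138).

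The main difference lay between the genotypes, with most of the calls in S phase genes. With vehicle 12 of the 16 S phase genes were lower in HKO cells than in FLOX cells and none was higher, with differences on the log2(TPM + 1) scale from -0.23 (Mcm2) to -0.56 (Gins2). The same test called 7.56% of all 11858 genes lower and 4.11% higher. Over both directions the share was 11.7%. Of the 11 tested G1 genes 2 were lower (Ccnd1 and Ccne1), and of the 3 mitotic genes none. In total 14 of the 30 tested genes were lower and 0 higher (limma, Benjamini-Hochberg adjusted p below 0.05 over all genes tested), and 15 had 4 HKO libraries all below the 4 FLOX libraries, against 11.7% of all genes. None had all 4 above, against 6.06% of all genes. The median difference was -0.35 over the S phase genes, -0.12 over the tested G1 genes and -0.2 over the 3 mitotic genes. Over all genes tested it was -0.023. Cdk1, Aurka and Birc5 had SE of 0.15, 0.16 and 0.18, so their lack of a call does not show an absence of difference. Of the 30 tested genes, 28 had estimates below 0. In bulk RNA fewer cells that transcribe these genes and less RNA per cell cannot be told apart.

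With palmitic acid 8 of the 16 S phase genes were lower in HKO cells and none higher, where 5.50% of all genes were lower and 4.24% higher. These 8 were Mcm2 to Mcm6, Pcna, Rrm1 and Rrm2, and all 8 were also among the 12 lower with vehicle (100% of the 8 and 66.7% of the 12). The libraries of the vehicle and of the palmitic acid comparison are separate, but the fit shares the estimate of the spread between them. The same replicate numbers recur under both treatments, and whether they mark the same cells is not stated. Of the G1 genes Ccnd1 was lower and Cdkn1b higher, and of the mitotic genes none passed. In total 9 of the 30 tested genes were lower and 1 higher, where the test called 9.74% of all genes. The HKO libraries lay wholly below the FLOX libraries for 11 genes, against 7.83% of all genes, and wholly above for 1 (Cdkn1b), against 6.11%. The median was -0.22 over the S phase genes, -0.1 over the tested G1 genes and -0.11 over the 3 mitotic genes. Over all genes tested it was -0.0077, and 25 of the 30 genes had estimates below 0. The counts of S phase genes lower in HKO cells ran from 10 to 12 with vehicle and from 7 to 8 with palmitic acid over the 26 alternatives to the processing. Of all genes called, the share higher in HKO cells was 35.2% with vehicle and 43.5% with palmitic acid, against 56.6% and 55.0% with median-ratio scaling, under which 11 and 8 of the S phase genes stayed lower.

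**Figure D2:**
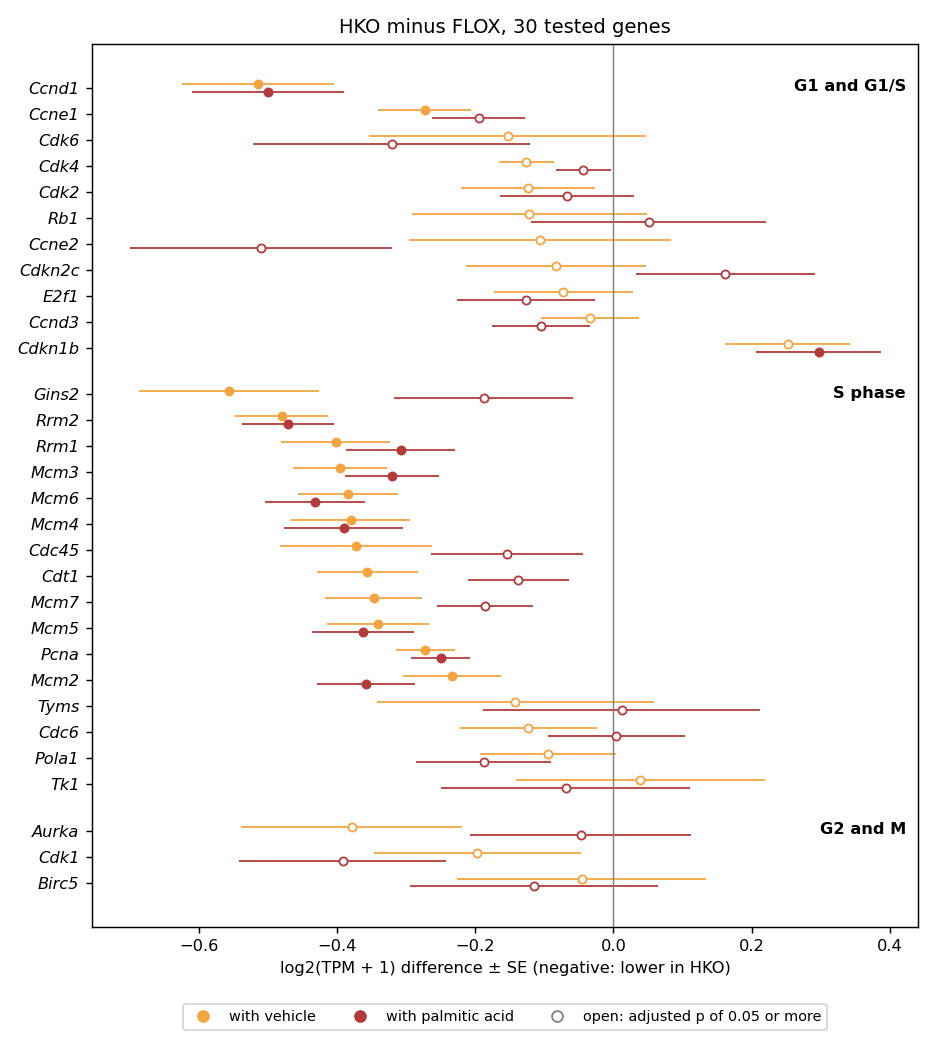
Difference between HKO and FLOX cells for the 30 tested genes on the log2(TPM + 1) scale, with vehicle and with palmitic acid; points are limma estimates, bars are SE, and filled points passed the adjusted p of 0.05. Filled points to the left of 0 are 12 S phase and 2 G1 genes with vehicle and 8 S phase genes and 1 G1 gene with palmitic acid.

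Palmitic acid moved 9 of the 30 tested genes in each genotype, in both directions. That share was near the one of all genes tested in FLOX cells and below it in HKO cells. In FLOX cells 5 of the 30 tested genes were higher (Cdk4, Ccne2, Cdt1, Mcm3 and Pcna) and 4 lower (Ccnd1, Ccnd3, Rrm1 and Rrm2), where the test called 34.4% of all genes, 23.0% higher and 11.5% lower. The groups did not overlap for 7 higher and 3 lower genes, against 18.1% and 10.9% of all genes. In HKO cells 6 were higher (Cdk4, Ccne1, Cdc6, Cdt1, Mcm3 and Pcna) and 3 lower (Ccnd1, Ccnd3 and Rrm2), where the test called 42.5% of all genes, 29.4% higher and 13.1% lower. Here 5 higher and 3 lower genes had groups without overlap, against 28.7% and 12.4% of all genes. The genotypes shared 4 of the higher genes (80% of the 5 and 66.7% of the 6) and 3 of the lower genes (75% of the 4 and 100% of the 3). Their libraries are separate, but the estimate of the spread is shared. The palmitic acid comparisons and the genotype comparisons use the same libraries.

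The scaling bears on the higher calls. The median of all genes was 0.096 in FLOX and 0.11 in HKO cells, and median-ratio scaling moved it to 0.0081 and 0.0056, quantile normalization to 0.020 and 0.021. The share of all calls that were higher went from 66.7% to 45.4% and 50.4% in FLOX cells and from 69.3% to 47.0% and 51.9% in HKO cells under these settings. Of the genes described here, 1 remained higher in FLOX cells with median-ratio scaling and 2 in HKO cells, Cdt1 in both and Cdk4 in HKO. Ccnd1, Ccnd3 and Rrm2 remained lower in both genotypes under both scalings.

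**Figure D3:**
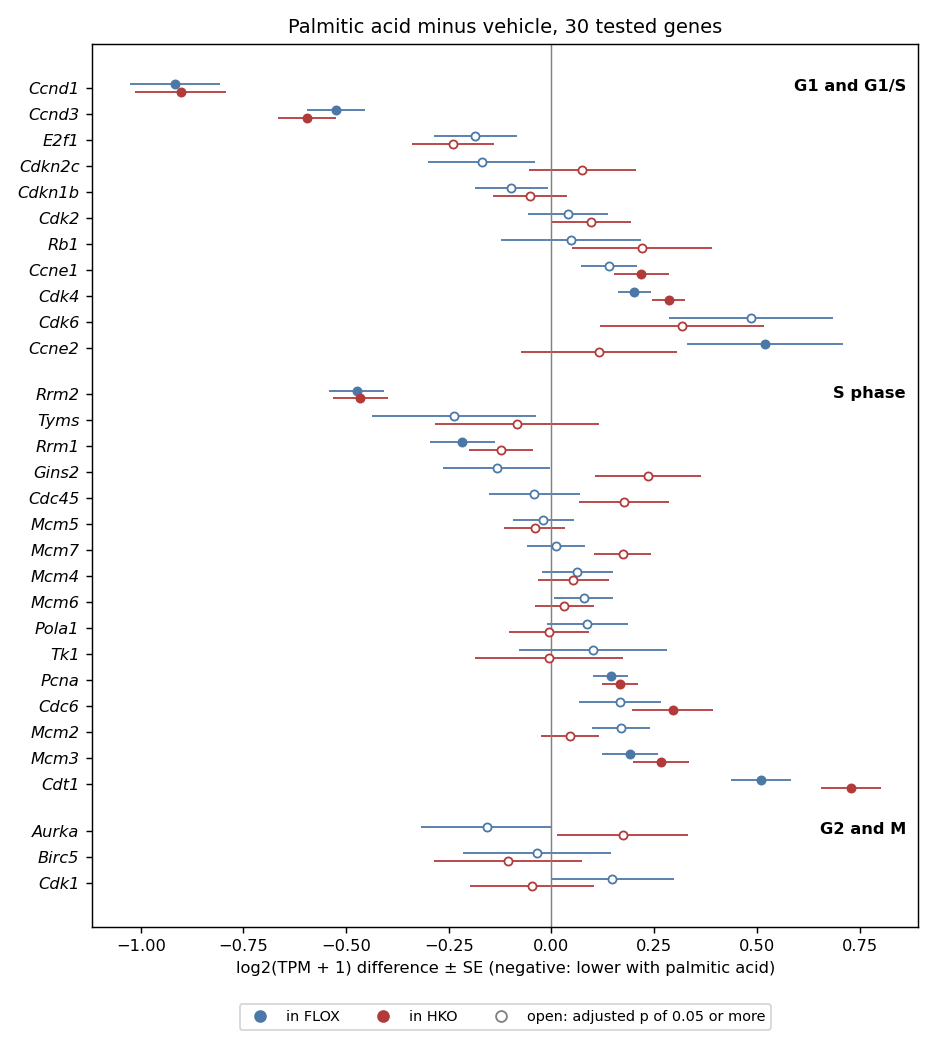
Difference between palmitic acid and vehicle for the 30 tested genes on the log2(TPM + 1) scale, in FLOX and in HKO cells; points are limma estimates, bars are SE, and filled points passed the adjusted p of 0.05. Ccnd1, Ccnd3 and Rrm2 lie to the left of 0 in both genotypes, and Cdk4, Cdt1, Mcm3 and Pcna to the right of it.

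None of the 30 tested genes passed the test for a difference between the genotypes in its response to palmitic acid, where the interaction test called 0.194% of all genes, 23 of them. The estimates ran from -0.40 (Ccne2) to 0.37 (Gins2), with a median of 0.034. Of the 4 S phase genes that were lower in HKO cells with vehicle and missed the threshold with palmitic acid, Gins2 had an interaction of 0.37 ± 0.18, Cdt1 of 0.22 ± 0.10, Cdc45 of 0.22 ± 0.16 and Mcm7 of 0.16 ± 0.099 (limma adjusted p = 0.69, 0.66, 0.83 and 0.76). Their genotype differences are thus not shown to depend on the treatment. At an unadjusted p below 0.05 the interaction test called 893 of all genes.

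The D cyclins, which sense growth signals in G1, differed in level and in response. Ccnd1 stood at 4.31, 4.07, 3.72 and 4.06 TPM in FLOX cells with vehicle and at 1.67, 1.62, 1.93 and 1.47 TPM with palmitic acid. Ccnd1 in HKO cells stood at 2.29, 2.92, 2.67 and 2.27 TPM with vehicle and 0.95, 1.11, 1.01 and 0.53 TPM with palmitic acid. The 4 groups did not overlap, with FLOX vehicle the highest and HKO palmitic acid the lowest. With palmitic acid the mean of Ccnd1 was 0.41 of that with vehicle in FLOX cells and 0.35 of it in HKO cells, and the log2 differences were -0.92 ± 0.11 and -0.90 ± 0.11 (limma adjusted p = 8.37e-06 and 6.84e-06). Between genotypes Ccnd1 differed by -0.51 ± 0.11 with vehicle and -0.50 ± 0.11 with palmitic acid (limma adjusted p = 0.00529 and 0.00693). At this level the added 1 TPM understates the folds, and with 0.1 TPM added the responses were -1.23 and -1.43. When only FLOX and HKO cells with palmitic acid were fitted, the adjusted p of that difference was 0.0645.

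Ccnd3 stood at 70.2, 60.5, 63.5 and 62.7 TPM in FLOX cells with vehicle and at 46.7, 41.6, 42.5 and 46.4 TPM with palmitic acid. Ccnd3 in HKO cells stood at 63.3, 64.6, 58.4 and 64.3 TPM with vehicle and 45.1, 43.8, 40.96 and 35.2 TPM with palmitic acid. Ccnd3 was the most abundant D cyclin, and every palmitic acid library lay below every vehicle library of its genotype. Its log2 difference with palmitic acid was -0.53 ± 0.071 in FLOX and -0.59 ± 0.071 in HKO cells (limma adjusted p = 3.53e-05 and 6.87e-06). The genotypes overlapped under both treatments, with differences of -0.034 ± 0.071 and -0.10 ± 0.071 (limma adjusted p = 0.838 and 0.433), which leaves Ccnd1 as the tested D cyclin that passed the test between genotypes.

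The catalytic partners of the D cyclins did not fall with them. Cdk4 rose with palmitic acid from 46.8 ± 1.9 to 54.0 ± 1.9 TPM in FLOX cells and from 42.8 ± 1.3 to 52.4 ± 1.0 TPM in HKO cells (log2 differences 0.20 ± 0.040 and 0.28 ± 0.040, limma adjusted p = 9.87e-04 and 3.16e-05). With median-ratio scaling the FLOX difference was 0.10 (limma adjusted p = 0.159). Between genotypes with vehicle the 4 HKO libraries of Cdk4 lay below the 4 FLOX libraries, with a difference of -0.13 ± 0.040 at a limma adjusted p of 0.0505. Cdk6, the other D cyclin kinase, was 12.1 ± 4.9 and 16.7 ± 2.4 TPM in FLOX cells and 10.4 ± 1.8 and 13.2 ± 2.6 TPM in HKO cells. FLOX vehicle replicate 1 stood at 19.2 TPM against 8.70 to 11.6 TPM in the other 3 of its group. The log2 difference of Cdk6 with palmitic acid in FLOX cells was 0.49 ± 0.20 (limma adjusted p = 0.0727), and without that library it was 0.72 (limma adjusted p = 0.00275).

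E cyclins act with Cdk2 at the entry into S phase. Ccne1 was 11.2 ± 0.78 and 12.4 ± 0.43 TPM in FLOX cells with vehicle and palmitic acid and 9.05 ± 0.30 and 10.7 ± 1.0 TPM in HKO cells. It was lower in HKO cells with vehicle (-0.27 ± 0.067, limma adjusted p = 0.0140) and rose with palmitic acid in HKO cells (0.22 ± 0.067, limma adjusted p = 0.0154). Both calls were lost with median-ratio scaling and with quantile normalization, and the second was lost in 4 of 26 alternatives in all, among them the one without HKO palmitic acid replicate 2. Ccne2 stood at 2.50, 1.96, 2.85 and 3.33 TPM in FLOX cells with vehicle and at 3.68, 5.13, 3.93 and 4.16 TPM with palmitic acid. Ccne2 in HKO cells stood at 2.06, 4.23, 1.84 and 1.83 TPM with vehicle and 2.48, 1.99, 2.98 and 3.28 TPM with palmitic acid. Ccne2 in HKO vehicle replicate 2 stood apart from the other 3 of its group, and that group overlapped with all others. With palmitic acid the HKO libraries of Ccne2 all lay below the FLOX libraries, with a difference of -0.51 ± 0.19 that was not called (limma adjusted p = 0.105). The rise of Ccne2 with palmitic acid in FLOX cells was 0.52 ± 0.19 (limma adjusted p = 0.0409), a call lost in 11 of 25 alternatives, while in HKO cells the difference was 0.12 ± 0.19 (limma adjusted p = 0.651). Cdk2 itself was 12.7 ± 1.2, 13.1 ± 1.5, 11.6 ± 1.7 and 12.4 ± 0.65 TPM in the 4 groups and passed no test.

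Of the brakes on G1, Cdkn1b (p27, an inhibitor of cyclin E and cyclin A kinases) was the one gene of the 30 that was higher in HKO cells. Cdkn1b stood at 10.45, 9.74, 7.53 and 10.26 TPM in FLOX cells with vehicle and at 8.29, 9.10, 8.59 and 9.02 TPM with palmitic acid. Cdkn1b in HKO cells stood at 10.35, 12.33, 12.54 and 10.60 TPM with vehicle and 10.62, 11.18, 11.70 and 10.43 TPM with palmitic acid. With palmitic acid the 4 HKO libraries lay above the 4 FLOX libraries, while with vehicle the groups overlapped by 1 FLOX library. The differences were 0.30 ± 0.090 with palmitic acid and 0.25 ± 0.090 with vehicle (limma adjusted p = 0.0478 and 0.0845). The call with palmitic acid was lost in 17 of 26 alternatives, while the one with vehicle was gained under both scalings. Cdkn2c (p18, an inhibitor of Cdk4 and Cdk6) stayed between 0.60 and 1.22 TPM and reached 1 TPM in 4 libraries. Rb1, which restrains E2F, ran from 2.36 to 5.36 TPM and E2f1 from 4.28 to 7.78 TPM. None of these 3 passed a test in any comparison.

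Licensing loads the ring-shaped Mcm2 to Mcm7 helicase onto origins with the help of Cdc6 and Cdt1. The 6 subunits together summed with vehicle to 166 ± 6.6 TPM in FLOX cells, against 128 ± 1.7 TPM in HKO cells, and with palmitic acid to 176 ± 1.8 and 138 ± 14 TPM. All 6 were lower in HKO cells with vehicle and 5 of the 6 with palmitic acid. Mcm6 stood at 61.3, 59.8, 58.8 and 59.8 TPM in FLOX cells with vehicle and at 63.7, 61.9, 63.8 and 64.03 TPM with palmitic acid. Mcm6 in HKO cells stood at 44.3, 45.6, 45.95 and 46.95 TPM with vehicle and 49.8, 46.9, 53.6 and 37.9 TPM with palmitic acid. No HKO library reached the lowest FLOX library, and HKO palmitic acid replicate 4 was the lowest of all. Mcm6 in HKO cells thus averaged 0.76 times its FLOX level with vehicle and 0.74 times with palmitic acid (log2 differences -0.38 ± 0.072 and -0.43 ± 0.072, limma adjusted p = 0.00242 and 9.39e-04).

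Mcm3 stood at 30.1, 23.4, 26.9 and 27.2 TPM in FLOX cells with vehicle and at 31.00, 31.1, 31.3 and 29.7 TPM with palmitic acid. Mcm3 in HKO cells stood at 21.8, 18.9, 19.1 and 20.96 TPM with vehicle and 25.9, 25.4, 23.9 and 22.7 TPM with palmitic acid. Mcm3 was the one subunit that also passed the test for palmitic acid, at 0.19 ± 0.068 in FLOX and 0.27 ± 0.068 in HKO cells (limma adjusted p = 0.0402 and 0.00520), calls that were both lost with median-ratio scaling. The FLOX call was lost in 12 of 26 alternatives. Its genotype differences were -0.40 ± 0.068 with vehicle and -0.32 ± 0.068 with palmitic acid (limma adjusted p = 0.00121 and 0.00663). Mcm4 stood at 17.7, 14.9, 15.6 and 16.9 TPM in FLOX cells with vehicle and at 15.3, 17.5, 16.9 and 18.4 TPM with palmitic acid. Mcm4 in HKO cells stood at 12.1, 11.9, 12.8 and 12.2 TPM with vehicle and 13.9, 14.2, 12.99 and 10.3 TPM with palmitic acid. Under both treatments the HKO libraries of Mcm4 lay below the FLOX libraries, with differences of -0.38 ± 0.086 and -0.39 ± 0.086 (limma adjusted p = 0.00893 and 0.00837). Mcm5 stood at 16.9, 15.1, 14.9 and 17.1 TPM in FLOX cells with vehicle and at 14.6, 15.7, 17.7 and 15.1 TPM with palmitic acid. Mcm5 in HKO cells stood at 11.6, 12.1, 13.4 and 12.5 TPM with vehicle and 12.8, 12.9, 11.7 and 10.8 TPM with palmitic acid. Mcm5 differed by -0.34 ± 0.074 and -0.36 ± 0.074 in the same way (limma adjusted p = 0.00683 and 0.00505), also with no overlap.

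Mcm2 stood at 17.97, 16.3, 17.7 and 18.1 TPM in FLOX cells with vehicle and at 19.8, 19.6, 19.6 and 20.3 TPM with palmitic acid. Mcm2 in HKO cells stood at 14.2, 14.98, 14.6 and 15.1 TPM with vehicle and 15.4, 16.4, 16.9 and 12.6 TPM with palmitic acid. All HKO libraries of Mcm2 were below all FLOX libraries of their treatment, with differences of -0.23 ± 0.071 with vehicle and -0.36 ± 0.071 with palmitic acid (limma adjusted p = 0.0425 and 0.00375), of which the first was lost in 16 of 26 alternatives. Mcm7 stood at 30.9, 30.4, 28.03 and 28.3 TPM in FLOX cells with vehicle and at 32.1, 28.2, 28.8 and 29.6 TPM with palmitic acid. Mcm7 in HKO cells stood at 21.96, 24.3, 23.9 and 21.5 TPM with vehicle and 26.9, 28.5, 26.4 and 22.2 TPM with palmitic acid. The vehicle groups of Mcm7 did not overlap (-0.35 ± 0.070, limma adjusted p = 0.00410), but those with palmitic acid did (-0.19 ± 0.070, limma adjusted p = 0.119).

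The loading factor Cdt1 was the S phase gene that palmitic acid raised most. Cdt1 stood at 11.9, 11.7, 10.6 and 10.7 TPM in FLOX cells with vehicle and at 17.3, 15.4, 16.4 and 16.4 TPM with palmitic acid. Cdt1 in HKO cells stood at 7.84, 8.59, 8.86 and 8.85 TPM with vehicle and 15.1, 15.6, 16.1 and 12.6 TPM with palmitic acid. In both genotypes every palmitic acid library lay above every vehicle library, and the mean rose 1.46-fold in FLOX and 1.74-fold in HKO cells (log2 differences 0.51 ± 0.073 and 0.73 ± 0.073, limma adjusted p = 6.09e-05 and 1.12e-06). With vehicle the HKO libraries lay below the FLOX libraries (-0.36 ± 0.073, limma adjusted p = 0.00449), and with palmitic acid the groups overlapped (-0.14 ± 0.073, limma adjusted p = 0.291). Gm20388, a gene that GENCODE M21 places over Cdt1 on the same strand, reached 15.19 TPM, and its differences with palmitic acid were 0.21 ± 0.10 in FLOX and 0.34 ± 0.10 in HKO cells (limma adjusted p = 0.114 and 0.0124). How reads were shared between Gm20388 and Cdt1 was not tested. Cdc6, an ATPase that acts with Cdt1, stood close to the filter. Cdc6 stood at 0.76, 0.91, 0.97 and 1.01 TPM in FLOX cells with vehicle and at 1.26, 1.13, 1.34 and 0.88 TPM with palmitic acid. Cdc6 in HKO cells stood at 0.66, 0.77, 0.74 and 0.85 TPM with vehicle and 0.97, 1.11, 1.24 and 1.3 TPM with palmitic acid. With palmitic acid it rose in HKO cells, where the groups did not overlap (0.29 ± 0.099, limma adjusted p = 0.0257). It reached 1 TPM in 7 of 16 libraries, 6 of them with palmitic acid, so that it entered the test through the groups where it was high, and the call was lost in 7 of 24 alternatives.

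Cdc45 and Gins2 belong to the complex that activates the loaded helicase, and Pola1 and Pcna to DNA synthesis. Gins2 stood at 5.86, 8.10, 8.99 and 9.60 TPM in FLOX cells with vehicle and at 8.13, 6.34, 6.77 and 7.79 TPM with palmitic acid. Gins2 in HKO cells stood at 5.47, 4.43, 5.36 and 5.34 TPM with vehicle and 7.37, 6.63, 5.09 and 5.99 TPM with palmitic acid. With vehicle all HKO values of Gins2 lay under the lowest FLOX value (-0.56 ± 0.13, limma adjusted p = 0.0112), whereas the groups overlapped with palmitic acid (-0.19 ± 0.13, limma adjusted p = 0.447). Cdc45 stood at 2.77, 1.94, 1.74 and 2.03 TPM in FLOX cells with vehicle and at 1.91, 1.86, 2.08 and 2.20 TPM with palmitic acid. Cdc45 in HKO cells stood at 1.21, 1.31, 1.56 and 1.51 TPM with vehicle and 1.83, 1.68, 2.04 and 1.32 TPM with palmitic acid. The same held for Cdc45 (-0.37 ± 0.11 and -0.15 ± 0.11, limma adjusted p = 0.0428 and 0.475), a call lost in 17 of 25 alternatives. Pola1, the catalytic subunit of the polymerase that starts new strands, ran from 1.51 to 2.58 TPM and passed no test. With palmitic acid its HKO libraries all lay below its FLOX libraries (-0.19 ± 0.098, limma adjusted p = 0.285).

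Pcna stood at 96.6, 90.1, 91.2 and 96.8 TPM in FLOX cells with vehicle and at 103, 103, 105 and 103 TPM with palmitic acid. Pcna in HKO cells stood at 79.2, 76.8, 76.8 and 76.7 TPM with vehicle and 91.4, 88.6, 89.5 and 78.8 TPM with palmitic acid. Pcna was lower in every HKO library than in any FLOX library of the same treatment. On average HKO cells had 0.83 times the FLOX level with vehicle and 0.84 times with palmitic acid (-0.27 ± 0.043 and -0.25 ± 0.043 on the log2 scale, limma adjusted p = 5.36e-04 and 0.00116). Palmitic acid raised it by 0.14 ± 0.043 in FLOX and 0.17 ± 0.043 in HKO cells (limma adjusted p = 0.0162 and 0.00534), and with median-ratio scaling these were 0.045 and 0.046 (limma adjusted p = 0.498 and 0.476). The FLOX call was also lost without FLOX vehicle replicate 2.

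Ribonucleotide reductase makes the deoxynucleotides for replication from the subunits Rrm1 and Rrm2. Rrm2 stood at 34.8, 32.7, 31.5 and 36.2 TPM in FLOX cells with vehicle and at 22.6, 25.1, 23.9 and 24.5 TPM with palmitic acid. Rrm2 in HKO cells stood at 22.2, 23.03, 24.9 and 25.6 TPM with vehicle and 19.3, 15.6, 16.5 and 16.9 TPM with palmitic acid. The FLOX vehicle libraries were the highest and the HKO palmitic acid libraries the lowest, with no overlap between these and the 8 libraries in between. Rrm2 differed between HKO and FLOX cells by -0.48 ± 0.067 with vehicle and -0.47 ± 0.067 with palmitic acid (limma adjusted p = 1.73e-04 and 1.96e-04). Palmitic acid lowered it by nearly as much, with -0.47 ± 0.067 in FLOX and -0.47 ± 0.067 in HKO cells (limma adjusted p = 5.26e-05 and 4.28e-05), so that the mean of HKO cells with palmitic acid was 17.1 ± 1.6 TPM against 33.8 ± 2.1 TPM in FLOX cells with vehicle. Ccnd1 and Rrm2 were the genes of the 38 called lower in all 4 of these comparisons.

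Rrm1 stood at 16.7, 12.4, 14.7 and 13.6 TPM in FLOX cells with vehicle and at 12.8, 12.03, 12.5 and 11.2 TPM with palmitic acid. Rrm1 in HKO cells stood at 11.1, 10.3, 10.00 and 10.8 TPM with vehicle and 9.81, 8.69, 10.2 and 9.78 TPM with palmitic acid. Rrm1 was lower in HKO cells with vehicle (-0.40 ± 0.079, limma adjusted p = 0.00328) and with palmitic acid (-0.31 ± 0.079, limma adjusted p = 0.0202), with no overlap, and the latter call was lost without FLOX palmitic acid replicate 1 or 3 or without HKO palmitic acid replicate 2. Its fall with palmitic acid in FLOX cells (-0.22 ± 0.079, limma adjusted p = 0.0445) had overlapping groups and was lost in 17 of 26 alternatives. Tyms, which makes thymidylate, ran from 6.44 to 15.1 TPM, and Tk1, which salvages thymidine, from 1.39 to 3.47 TPM. Neither passed a test, and in both genes all 4 groups overlapped.

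**Figure D4:**
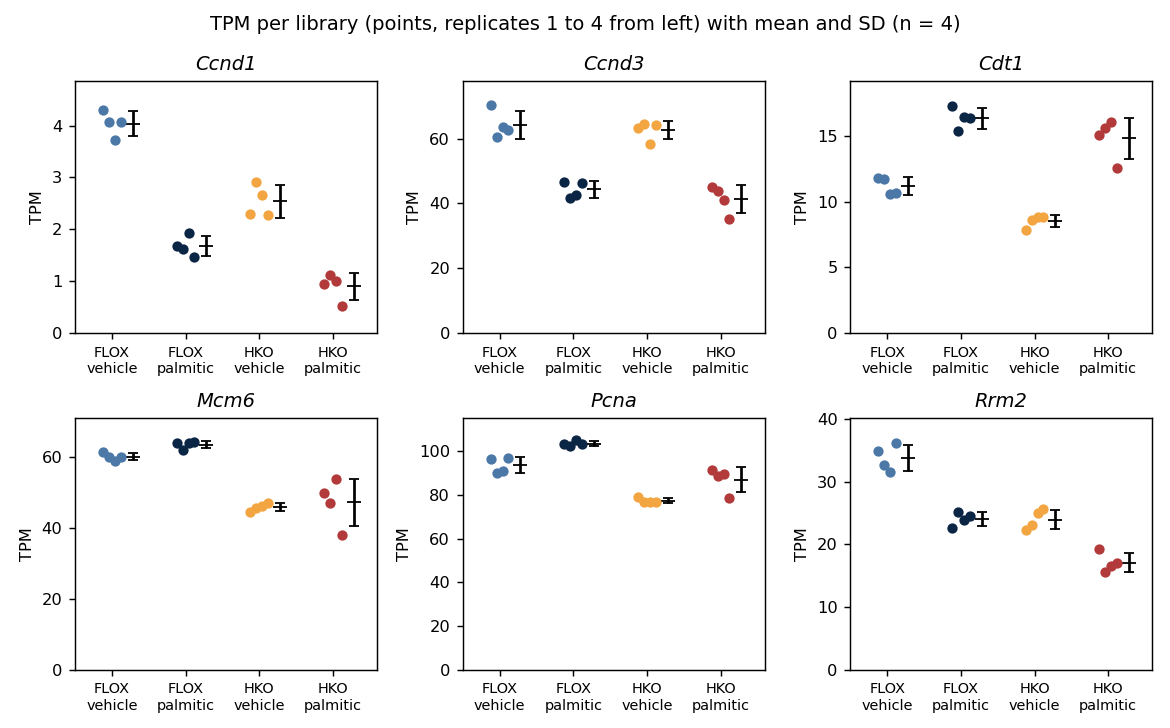
TPM per library of Ccnd1, Ccnd3, Cdt1, Mcm6, Pcna and Rrm2 in the 4 groups (points, replicates 1 to 4 from left), with mean and SD (n = 4); all axes start at 0. Ccnd1 and Rrm2 separate by genotype and by palmitic acid in all 4 comparisons, Mcm6 and Pcna by genotype under both treatments and by palmitic acid in FLOX cells, Cdt1 by palmitic acid in both genotypes and by genotype with vehicle, and Ccnd3 by palmitic acid alone.

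The summed S phase TPM was 346 ± 11 and 358 ± 5.9 in FLOX cells with vehicle and palmitic acid and 271 ± 3.6 and 290 ± 26 in HKO cells. The G1 sums were 174 ± 8.1, 165 ± 4.0, 163 ± 4.2 and 154 ± 5.7 TPM in the same order, and the mitotic sums 16.7 ± 1.7, 17.6 ± 1.7, 13.9 ± 1.2 and 14.1 ± 2.6 TPM. A sum is led by its most abundant genes, here Pcna and Mcm6 in S phase, Ccnd3 and Cdk4 in G1 and Cdk1 in mitosis. Among HKO cells with palmitic acid, replicate 4 was the lowest of its group for 12 of the 16 S phase genes. Its S phase sum was 252.7 TPM, where the other 3 libraries had 297.2 to 310.6 TPM. Without this library the S phase genes lower in HKO cells with palmitic acid numbered 8, as with it, and the median went from -0.22 to -0.19. FLOX vehicle replicate 1 was the highest of its group for 8 of the 16 S phase genes. Without both FLOX libraries numbered 1, 10 S phase genes were lower in HKO cells with vehicle and 8 with palmitic acid.

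**Figure D5:**
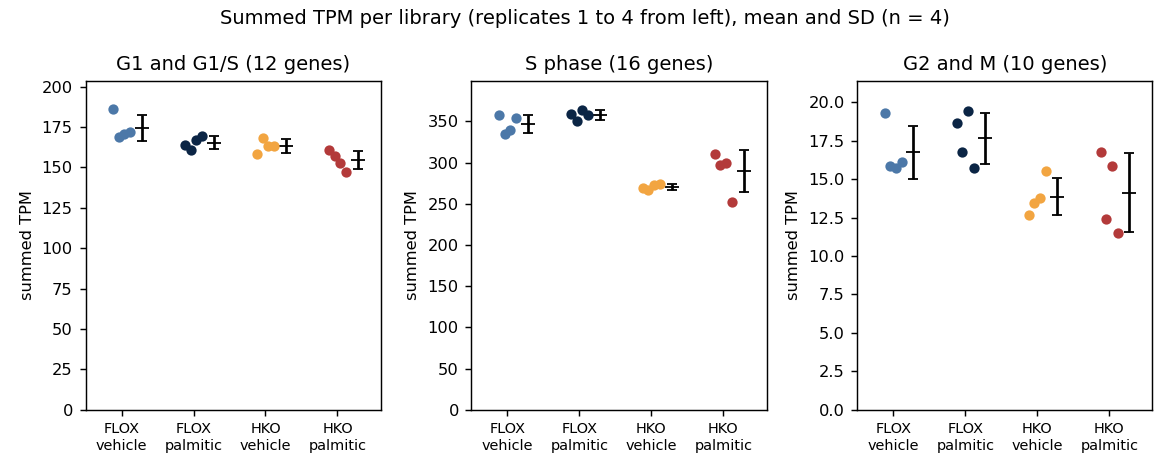
Summed TPM of the 12 G1, 16 S phase and 10 G2 and mitotic genes in each library (points, replicates 1 to 4 from left), with mean and SD (n = 4); all axes start at 0. The S phase sums of the HKO libraries (252.7 to 310.6 TPM) lie below those of the FLOX libraries (334.6 to 364.0 TPM), while the mitotic sums overlap between genotypes with palmitic acid (15.73 to 19.40 TPM in FLOX, 11.47 to 16.78 TPM in HKO) and do not with vehicle (15.70 to 19.27 and 12.68 to 15.53 TPM).

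Promoters were read for the E2F motif, the element through which E2F turns on S phase genes, and for 2 elements common in mitotic promoters, the CHR (cell cycle genes homology region) and the CCAAT box. The words searched on both strands were TTTCCCGC and TTTGGCGC for E2F, TTTGAA for CHR and CCAAT, none of which contains another, in the 300 bases from 250 before to 50 after the start. Of the 38 genes 31 had a RefSeq promoter (GRCm38.p6), and a gene counted where any of its promoters held the word. An E2F word was found in 7 of 14 S phase genes, 1 of 8 G1 genes and 0 of 9 mitotic genes, against 1.8% of all genes with a promoter in the table (1.56% of all promoters). CHR words were found in 6 of the 9 mitotic genes, 2 of the 14 S phase genes and none of the 8 G1 genes, against 20.2% of all genes, and CCAAT in 8, 10 and 4 against 41.1%. Of the 11 genes lower in HKO cells with vehicle that had a promoter, 5 held an E2F word, namely Cdt1, Mcm3, Mcm5, Mcm6 and Mcm7. Cdc6, Pola1 and the G1 gene Cdk2 held one and did not pass that test. A match is a description of the letters and does not show a bound site.

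Stretches with an E2F word are shown for 3 helicase genes called lower in HKO cells and for 2 S phase genes not called lower. They run 5′ to 3′ along the gene, with the word or its reverse complement in capitals:
Mcm6, chr1:128359719-128359778, minus strand: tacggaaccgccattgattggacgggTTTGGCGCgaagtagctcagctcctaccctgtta
Mcm6, chr1:128359782-128359841, minus strand: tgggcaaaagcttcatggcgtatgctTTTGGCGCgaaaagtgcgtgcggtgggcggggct
Mcm5, chr8:75109334-75109393, plus strand: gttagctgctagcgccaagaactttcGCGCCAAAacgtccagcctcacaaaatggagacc
Mcm7, chr5:138172015-138172074, minus strand: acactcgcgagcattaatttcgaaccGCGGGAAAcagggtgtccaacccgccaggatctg
Pola1, chrX:93632260-93632319, minus strand: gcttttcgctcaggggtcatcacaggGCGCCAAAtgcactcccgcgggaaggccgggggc
Cdc6, chr11:98907987-98908046, plus strand: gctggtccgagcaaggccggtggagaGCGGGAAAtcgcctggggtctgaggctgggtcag
Mcm6, which was lower in HKO cells under both treatments, holds the same word at both places, with first bases 47 and 110 bases before the start. In Mcm5, Mcm7, Pola1 and Cdc6 the first base of the word lies 149, 165, 138 and 138 bases before the start. For Mcm7 this is the start of one promoter, and its other promoter, chr5:138171217-138171516, holds no E2F word. The words of Cdt1 and Mcm3 are not printed. Pcna and Rrm2 were lower in HKO cells under both treatments and hold neither word in this window.

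For the mitotic genes, stretches with a CHR word in capitals are shown for Cdk1, which was transcribed at about 10 TPM, and for Mki67 and Ccnb2, which stayed under 1 TPM:
Cdk1, chr10:69352913-69352953, minus strand: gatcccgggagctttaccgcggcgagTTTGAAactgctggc
Cdk1, chr10:69352952-69353009, minus strand: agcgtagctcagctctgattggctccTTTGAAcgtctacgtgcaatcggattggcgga
Mki67, chr7:135716446-135716503, minus strand: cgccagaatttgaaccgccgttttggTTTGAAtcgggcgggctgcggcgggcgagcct
Ccnb2, chr9:70421690-70421747, minus strand: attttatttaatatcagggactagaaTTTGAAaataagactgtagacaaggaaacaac
The word lies 15 and 71 bases before the start in Cdk1, 98 bases before it in Mki67 (a further copy lies 116 bases before it) and 167 bases before it in Ccnb2. Ccnb2 holds a further copy in the window that ends past the start and is not printed.

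Other genes of the same machinery were counted in lists that hold none of the 38. Of 48 licensing and replication genes 44 were tested, and Gins3, Clspn, Ticrr and Recql4 were not. Of the 44, 10 were lower in HKO cells with vehicle and 10 with palmitic acid, and none was higher. The medians were -0.19 and -0.21, where 7.56% and 5.50% of all genes were lower. Prim1, the primase that starts each strand, was lower in HKO cells with vehicle, at 8.61 ± 0.62 TPM against 12.8 ± 0.62 TPM in FLOX cells (-0.52 ± 0.079, limma adjusted p = 3.71e-04). Uhrf1, which guides maintenance methylation of new DNA, and Rfc3, of the loader of the Pcna clamp, differed by -0.36 ± 0.097 and -0.36 ± 0.098. With palmitic acid, among the genes that passed and whose groups did not overlap, the differences were largest for Rfc4, another loader subunit (-0.45 ± 0.13), the polymerase subunit Pold4 (-0.38 ± 0.055) and the origin recognition subunit Orc6 (-0.31 ± 0.048). Tipin, of the fork protection complex, was also lower (-0.39 ± 0.11), with overlapping groups, and is named here after its values were seen. Of 19 other nucleotide supply genes 4 were lower in HKO cells with vehicle and 2 with palmitic acid, while Shmt2, a mitochondrial enzyme of one-carbon supply, was higher under both, beside the same 7.56% and 5.50% of all genes lower and 4.11% and 4.24% higher. Impdh2, which leads to guanine nucleotides, differed by -0.35 ± 0.042 and -0.32 ± 0.042 and Umps, which makes uridylate, by -0.34 ± 0.051 and -0.18 ± 0.051. Gart, a purine synthesis enzyme, differed by -0.32 ± 0.075 with vehicle.

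Among 22 tested G1 regulators outside the 38, 3 were lower in HKO cells with vehicle, against 7.56% of all genes: Mnat1, an assembly factor of the Cdk-activating kinase (-0.22 ± 0.063), the cyclin G1 gene Ccng1 (-0.18 ± 0.052) and E2f4, an E2F that acts as a repressor in resting cells (-0.15 ± 0.047). With palmitic acid E2f4 was lower (-0.19 ± 0.047) and Ccng2, a cyclin of growth-arrested cells, higher (0.59 ± 0.17). Palmitic acid raised 8 of these 22 genes in FLOX and 10 in HKO cells and lowered 1 and 0, where 23.0% and 29.4% of all genes were higher and 11.5% and 13.1% lower. Myc, a driver of growth, rose by 0.43 ± 0.062 and 0.69 ± 0.062, and Ccng2 by 0.71 ± 0.17 and 0.95 ± 0.17. Rbl1, a relative of Rb1, rose by 0.44 ± 0.12 and 0.40 ± 0.12, and Cdc25a, a phosphatase that activates Cdk2, by 0.39 ± 0.12 and 0.39 ± 0.12. The groups overlapped for Rbl1 in HKO cells and for Cdc25a in FLOX cells. The kinase inhibitor gene Cdkn1a, named here after its values were seen, rose as well, without overlap. It went from 171 ± 3.2 to 191 ± 9.9 TPM in FLOX and from 167 ± 3.7 to 197 ± 3.8 TPM in HKO cells (0.15 ± 0.035 and 0.24 ± 0.035). The lists of licensing and of nucleotide supply moved both ways with palmitic acid. In the first, 10 and 8 genes were higher and 2 and 2 lower in FLOX and HKO cells, in the first genotype a share of higher genes near that of all genes and in the second a smaller one, with Pold4 at 0.61 ± 0.055 and 0.59 ± 0.055. In the second, 4 and 6 were higher and 4 and 4 lower, with the one-carbon enzymes Shmt1 (-0.86 ± 0.17 and -0.80 ± 0.17) and Shmt2 (-0.68 ± 0.050 and -0.72 ± 0.050) lower and Impdh1 (0.75 ± 0.059 and 0.64 ± 0.059) and the pyrimidine enzyme Cad (0.50 ± 0.14 and 0.77 ± 0.14) higher.

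Mitotic genes outside the 38 were also often untested: 21 of 44 further G2 and mitotic genes were tested, and Cdc20, Foxm1, Mybl2 and Cenpf were among the 23 that were not. Of the 21, 3 were lower in HKO cells with vehicle, against 7.56% of all genes, which were Cdca8, of the chromosomal passenger complex (-0.46 ± 0.10), Anln, of the cytokinetic ring (-0.42 ± 0.10), and the checkpoint gene Bub3 (-0.20 ± 0.051). Bub3 was lower with palmitic acid as well (-0.17 ± 0.051). Anln fell with palmitic acid from 3.33 ± 0.23 to 1.16 ± 0.18 TPM in FLOX cells and from 2.23 ± 0.29 to 0.982 ± 0.22 TPM in HKO cells (-1.01 ± 0.10 and -0.71 ± 0.10), and Cks2, a subunit of Cdk complexes, rose by 0.43 ± 0.060 and 0.56 ± 0.060.

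Histone genes of the Hist1 to Hist4 families, matched by name and not by when their transcripts build up, were mostly near 0, and 13 of 69 were tested. Of these 13, 4 were higher in HKO cells under each treatment and none was lower, where 4.11% and 4.24% of all genes were higher. Hist1h1c, a linker histone gene, was 26 ± 2.5 and 42.6 ± 5.8 TPM in FLOX and HKO cells with vehicle and 27.0 ± 2.8 and 60.5 ± 1.9 TPM with palmitic acid (0.69 ± 0.090 and 1.14 ± 0.090, limma adjusted p = 9.47e-05 and 4.30e-07). Hist1h4i differed by 0.41 ± 0.12 and 0.48 ± 0.12 and Hist3h2a by 0.32 ± 0.098 and 0.53 ± 0.098. The fourth was Hist2h2aa1, whose reads can be split with its near-identical copy Hist2h2aa2. Values of such copies are uncertain.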

How the data were processed

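RNA-seq of 16 libraries (Illumina stranded total RNA kit, per the labels' protocols) was deposited as 1 table of TPM that the authors made with RSEM 1.3.3, per the submitters' processing notes. The sources used here give no aligner, annotation or strand setting, and the 1 build listed is a human one. All 16 columns were used. Of 55416 genes, 11858 had at least 1 TPM in at least 4 libraries and were fitted on log2(TPM + 1) in limma 3.58.1 (R 4.3.3), with 4 group means, a mean-variance trend, two-sided tests and Benjamini-Hochberg adjustment over all genes tested, at 0.05. Folds on this scale understate changes of low genes. The fit was tested on simulated data. Per-library values are given for up to 16 called genes with the largest differences and for Pcna and Mki67, and up to 3 genes per list and comparison are named. The genes and lists were chosen with earlier results of these data known. Histone genes were matched by their older symbols (Hist1 to Hist4, pseudogenes left out) after the table was seen, and their copies are uncertain. Of the 38 genes, 17 overlap a gene on the opposite strand, 10 of them one that reaches 1 TPM (Ccnd1, Ccnd3, Cdk4, Ccne2, Rb1, Mcm7, Cdc45, Gins2, Tk1 and Ccna2), and 5 have pseudogene copies. On the same strand Cdt1 overlaps the protein-coding gene Gm20388, which reached 15.19 TPM. Reads could be shared in all these cases. The alternatives were another pseudocount, 3 other filters, 2 scalings, no trend, only the groups compared, a replicate block, and libraries left out.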

Additional observations from a re-analysis of the deposited data

Results flagged for a closer look

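In groups of 4 libraries, 1 value stood farther from the other 3 than Dixon's 95% limit allows in 8 of 120 gene and group pairs checked, where chance alone gives about 1 in 20, or 6. In HKO cells with vehicle these were the high 4.23 TPM of Ccne2 and the low 4.43 TPM of Gins2 in replicate 2, the high 79.19 TPM of Pcna in replicate 1, and the high 1.22 TPM of Cdkn2c and 10.95 TPM of Cdk1 in replicate 4. In HKO cells with palmitic acid they were the high 5.36 TPM of Rb1 in replicate 2 and the low 1.39 TPM of Tk1 in replicate 4. In FLOX cells with palmitic acid it was the low 61.86 TPM of Mcm6 in replicate 2. Of these, Ccne2 bears on a comparison: without HKO vehicle replicate 2 its difference between genotypes with palmitic acid (-0.51 on the log2 scale with and without that library, which enters this comparison only through the shared spread) went from a limma adjusted p of 0.105 to 0.028.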

How the results depend on the processing

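Of 42 calls on single genes, 26 were kept under every alternative, 16 were lost under at least 1 and none reversed. Of the genes that palmitic acid raised, the 5 in FLOX cells became 3 with no filter, 3 with a replicate block, 3 after quantile normalization and 1 after median-ratio scaling, and 2 to 6 with 1 library left out. The lowest of these was without FLOX vehicle replicate 2. Without FLOX vehicle replicate 3 or FLOX palmitic acid replicate 2, 3 or 4 it was 3. The 6 in HKO cells became 2 with median-ratio scaling and 3 with quantile normalization, and the 3 that fell there became 5 with either. Each scaling added 1 gene higher in HKO cells with vehicle, Cdkn1b, where there were 0. The 1 higher with palmitic acid, also Cdkn1b, became 0 with no filter, with no mean-variance trend, with a replicate block and without both FLOX libraries numbered 1, and 0 to 1 with 1 library left out. Over all genes, 1155 calls between genotypes with palmitic acid became 669 when only those groups were fitted. The 23 interaction calls became 9 with median-ratio scaling, 5 with no trend and 3 with a replicate block, and 8 to 24 with 1 library left out. The replicate block ended the calls of Ccne2, Mcm3 and Rrm1 (palmitic acid in FLOX), Ccne1 and Cdc6 (palmitic acid in HKO), Mcm2 and Cdc45 (genotype with vehicle) and Cdkn1b. The cause of these shifts was not tested. Replicate numbers were not treated as pairs: same-numbered libraries' deviations correlated at -0.15 to 0.0861 between treatments and -0.112 to 0.112 between genotypes, and 5 of 16 libraries correlated best with their own number. TPM keeps no depth, so counting error for genes near 1 TPM is unknown.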
